A study of Homo sapiens with 3 samples.

Results

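The 38 genes described here encode proteins of homologous recombination and of the Fanconi anemia pathway, chosen as a named list of the damage kinases, the BRCA complexes, the genes of strand exchange, the nucleases and the Fanconi core complex with its clamp. Each was read from its brightest probe on the arrays, and all 38 had 1, with 55 probes in all among the 34892 probes of 25006 named genes. The gene listed as MRE11A is MRE11 in the annotation.

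Gene expression was measured in U87, an established human glioblastoma cell line, in a pair of stable clones selected with G418. U87WT (U87WT 5) carried GFP-IGF1R, a GFP fusion of the receptor for insulin-like growth factor 1 (IGF1) that the labels call nuclear, and U87Mut (U87Mut 5) carried GFP-IGF1R1025x-1100x-1120x, which the labels call non-nuclear. Both clones were hybridized together on each of 3 two-colour Agilent arrays, U87WT always in Cy5 and U87Mut always in Cy3, after 24 h in FBS-free medium, after 24 h with 50 nM IGF1, or after IGF1 with OSI906, an inhibitor of IGF1R and of the insulin receptor. The inhibitor's dose is 0.5 µM in the title and 500 in the medium label. Each construct is represented by 1 clone and each condition by 1 array, no parental U87 sample was analysed here, and the dyes were not swapped, so that a difference between the constructs, a difference between single clones and a dye bias cannot be told apart. The purpose, per the study's title and design, was to compare cells whose receptor can enter the nucleus with cells whose receptor cannot.

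Homologous recombination repairs broken DNA by copying an intact sister molecule, and cells mostly use it once the DNA has been replicated. A broken end is trimmed to single-stranded DNA, and with the help of BRCA1, PALB2 and BRCA2 this strand invades the matching molecule. The Fanconi pathway deals with crosslinks between the strands of DNA: its core complex attaches ubiquitin to the paired proteins FANCI and FANCD2, which then recruit nucleases and hand the resulting break to homologous recombination. Expression of many of these genes is known to follow the cell cycle, with E2F factors and the CHR and CCAAT elements among the known promoter features of such genes.

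Stretches of 5 promoters are given from the RefSeq table (GRCh38.p14), for the 4 members with the most negative mean ratios among those with an entry there, and for RAD50, whose level was nearly equal in both clones. Each runs from 200 bases before to 29 bases after the start of the transcript in the direction of the gene, and the capitals mark a match to a motif. BRCA1 and RAD54L had 2 entries each, and the entry with the most motif matches was chosen for print. Motifs were searched on both strands: for E2F the letters TTTCGCG, its relative TTTGGCG and also the form TTTCCCG, for CHR the letters TTTGAA and its relative TTTAAA, and for the CCAAT box the letters of its name. None of these letter strings holds another, though matches may overlap at their ends. The regions are chr16:89816619-89816847, minus strand for FANCA, chr17:43125336-43125564, minus strand for BRCA1, chr7:152676113-152676341, minus strand for XRCC2, chr1:46247488-46247716, plus strand for RAD54L and chr5:132556777-132557005, plus strand for RAD50.
FANCA: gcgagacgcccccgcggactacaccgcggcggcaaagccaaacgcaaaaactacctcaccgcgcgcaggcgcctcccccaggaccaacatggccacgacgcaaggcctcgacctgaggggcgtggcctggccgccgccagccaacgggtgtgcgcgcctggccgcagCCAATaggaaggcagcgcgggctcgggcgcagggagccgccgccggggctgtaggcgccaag
BRCA1: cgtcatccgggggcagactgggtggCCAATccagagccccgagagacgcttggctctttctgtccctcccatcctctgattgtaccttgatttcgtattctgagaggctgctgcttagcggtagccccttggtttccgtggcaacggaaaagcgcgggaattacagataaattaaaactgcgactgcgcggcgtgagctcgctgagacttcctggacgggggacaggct
XRCC2: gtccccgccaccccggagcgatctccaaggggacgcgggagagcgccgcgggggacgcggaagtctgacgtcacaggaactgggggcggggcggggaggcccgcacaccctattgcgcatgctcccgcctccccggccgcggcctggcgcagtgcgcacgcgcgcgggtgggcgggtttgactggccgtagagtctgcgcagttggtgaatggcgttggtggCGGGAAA
RAD54L: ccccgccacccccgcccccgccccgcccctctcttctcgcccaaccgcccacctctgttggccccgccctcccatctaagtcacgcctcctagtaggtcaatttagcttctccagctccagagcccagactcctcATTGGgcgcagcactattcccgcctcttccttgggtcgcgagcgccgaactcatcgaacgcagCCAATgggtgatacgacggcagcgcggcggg
RAD50: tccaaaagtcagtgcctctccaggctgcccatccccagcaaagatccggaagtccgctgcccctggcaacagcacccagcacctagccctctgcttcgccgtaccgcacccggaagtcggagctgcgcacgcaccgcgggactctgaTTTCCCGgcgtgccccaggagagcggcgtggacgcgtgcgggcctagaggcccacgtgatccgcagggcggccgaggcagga

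In these stretches FANCA holds CCAAT 33 bases before its start, BRCA1 holds it 175 bases before, and RAD54L holds it 2 bases before and on the opposite strand 65 bases before. XRCC2 holds TTTCCCG on the opposite strand 22 bases after its start, and RAD50, which was not called, holds the same letters 53 bases before. Of the 38 members, 34 matched an entry, searched over its 250 bases before and 50 after the start, and FANCI, NBN, RAD54B and WRN did not. At least 1 E2F match was found in 8 of the 34 (23.5%), beside 8.67% of 27305 genes in the table. CCAAT was found in 16 of 34 (47.1%) beside 39.7% of all genes, and a CHR match in 6 of 34 (17.6%) beside 27.9%. The E2F letters were found in 5 of 21 members called lower in U87WT below and in 3 of 13 that were not. These matches are letters in a window and were not tested as sites.

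The 38 genes were mostly lower in U87WT than in U87Mut. The clone difference was tested with limma over the 3 arrays, each of a different condition, so that the response to treatment is part of the error. A call is an adjusted p (Benjamini-Hochberg, over 57318 probes) below 0.05. Of the 38 genes, 24 were called lower in U87WT and 0 higher, and 14 were not called (unadjusted p below 0.05: 28 lower, 0 higher). Over all probes, 4.36% were called lower and 4.49% higher. The scanner software called the brightest probe of all 38 members well above background for both clones on every array. Among the 15105 tested genes of which the same holds, 11.3% were called lower and 11.5% higher. The called members lay between a mean log2 ratio of U87WT over U87Mut of -1.28 (FANCA) and -0.22 (ATRIP). The count depends on how the background was fitted: with the spots that the scanner software had marked as not uniform left in the background fit, 8 of the 24 kept their call, and with the scanner software's own processed signals or with median centring in place of loess 0 did (limma, unadjusted p below 0.05 for 23 and 22 of the 24). Without the array of IGF1 with OSI906 9 of the 24 were called, and without that of FBS-free medium 15. All 24 stayed below 0 in each of these cases.

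By size alone, 12 members lay below -0.5 (log2) in FBS-free medium, where 3.77% of all genes did, 19 with IGF1 (2.89% of all genes), and 13 with IGF1 and OSI906 (3.48% of all genes). None lay above 0.5 on any array, where 4.02%, 4.62% and 3.6% of all genes did, in the same order. Among genes well above background, as all members were, 936 of 15256, 708 of 15198 and 868 of 15345 lay below -0.5. Above 0.5 lay 967, 1101 and 882 of these. The median log2 ratio of the 38 was -0.40, -0.51 and -0.37 on the 3 arrays, beside 0.00, 0.01 and 0.00 over all named genes. The 12 genes below -0.5 on all 3 arrays were FANCA, FANCI, BRCA1, XRCC2, RAD54L, BLM, FANCG, FANCE, EXO1, BARD1, UBE2T and FANCL, and 1.48% of all genes were below -0.5 on all 3. These counts by size carry no test with 1 array a condition, and they moved with the processing: 10 members were past 0.5 with IGF1 when marked spots were left in the background fit, and 22 in FBS-free medium and 24 with OSI906 when the scanner software's processed signals were used. With median centring in place of loess 2 members lay above 0.5 with IGF1. The SD of a single log2 ratio, estimated over 27223 bright probes, was 0.143. It came from the difference between the arrays of FBS-free medium and of IGF1 with OSI906. Their treatment difference is therefore part of it, and the IGF1 array did not enter it.

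**Figure D1:**
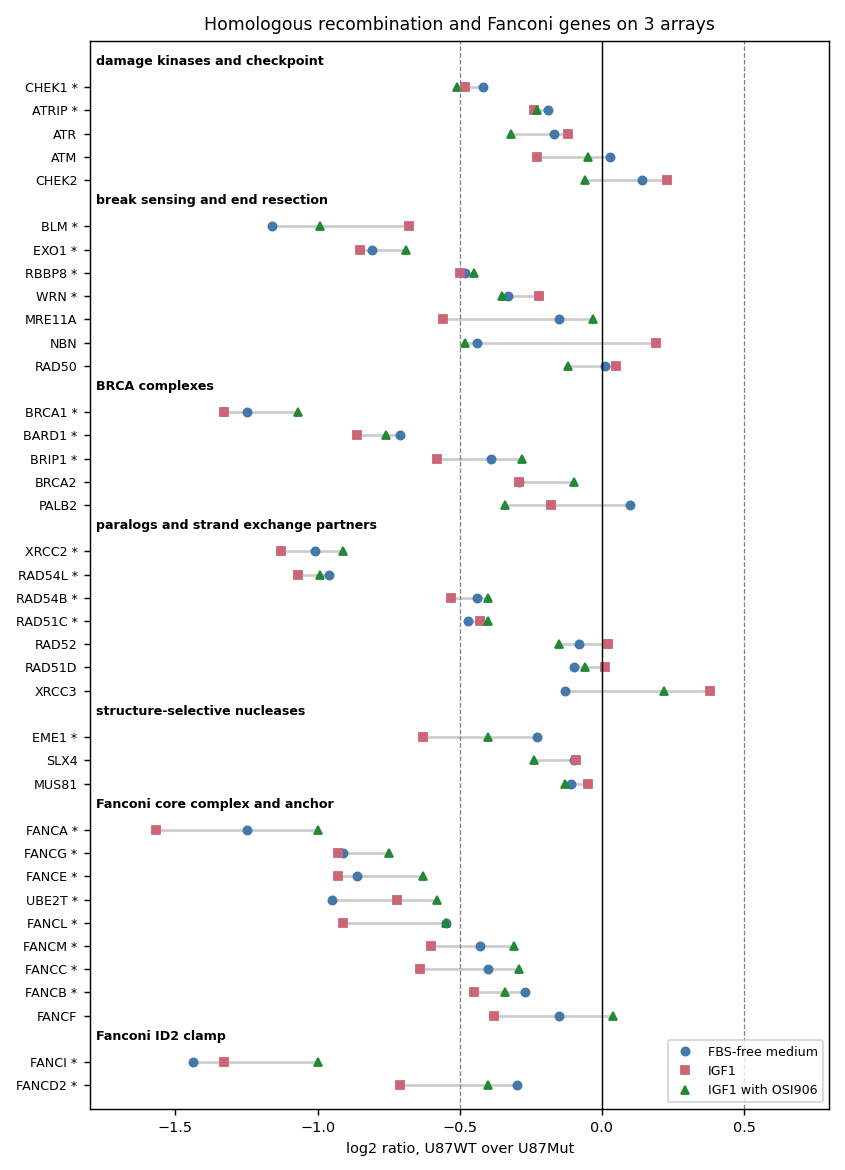
Log2 ratio of U87WT over U87Mut (horizontal axis) of the 38 genes by role, 1 point for each array; grey bars span the 3 arrays, dashed lines mark -0.5 and 0.5, and a star marks the 24 genes called by limma. Most points lie left of 0, FANCA reaches -1.57, and XRCC3 has the point farthest to the right, 0.38.

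Below, levels are normalized log2 brightness of the brightest probe, and values in threes are in the order FBS-free medium, IGF1, IGF1 with OSI906. A level is not compared between genes, and ratios are U87WT over U87Mut with the SE from limma (n = 3 arrays). Where levels are said not to overlap between the clones, the genes were already picked as called lower. The share of all genes without such overlap was not computed.

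Among the damage kinases and their partners, 2 of 5 were called. CHEK1, the kinase that ATR activates to hold the cell cycle, read 7.23, 7.27 and 7.17 in U87WT and 7.65, 7.75 and 7.68 in U87Mut. Its log2 ratio was -0.47 ± 0.04 (adjusted p = 0.00575), and the levels of the clones did not overlap. ATRIP, the partner through which ATR is brought to single-stranded DNA, read 6.49, 6.51 and 6.46 in U87WT and 6.68, 6.74 and 6.68 in U87Mut, a ratio of -0.22 ± 0.03 (adjusted p = 0.0285). A second ATRIP probe gave -0.16 and was not called (adjusted p = 0.19). The apical kinases themselves were not called: ATR had ratios of -0.17, -0.12 and -0.32 (adjusted p = 0.0902) and ATM of 0.03, -0.23 and -0.05 (adjusted p = 0.513). The 2 probes of ATM differed in sign, at -0.08 and 0.16 in the mean. CHEK2, the kinase downstream of ATM, had ratios of 0.14, 0.23 and -0.06 (adjusted p = 0.464), and none of its 4 probes was called.

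Of the genes for break sensing and end resection, 4 of 7 were called. BLM, a RecQ helicase (chr15:90717346-90816166), read 7.49, 7.84 and 7.11 in U87WT and 8.66, 8.53 and 8.10 in U87Mut. Its ratio was -0.95 ± 0.10 (adjusted p = 0.00999), or 1.93-fold higher in U87Mut. EXO1, an exonuclease that lengthens the single-stranded tail, read 6.65, 6.54 and 6.45 in U87WT and 7.45, 7.39 and 7.14 in U87Mut. The EXO1 ratio was -0.78 ± 0.05 (adjusted p = 0.00356). RBBP8, which starts resection together with the MRE11 complex, read 9.25, 9.35 and 9.33 in U87WT and 9.72, 9.84 and 9.79 in U87Mut, a ratio of -0.47 ± 0.03 (adjusted p = 0.00483). WRN, the other RecQ helicase of the list, read 8.65, 8.76 and 8.59 in U87WT and 8.98, 8.98 and 8.94 in U87Mut, a ratio of -0.30 ± 0.04 (adjusted p = 0.0203). For all 4 of these genes, already picked as called lower, every U87WT level lay below every U87Mut level. The share of all genes with such levels was not computed. The complex that senses the break, made of MRE11A, RAD50 and NBN, had no called gene. MRE11A read 7.93, 7.84 and 8.03 in U87WT and 8.08, 8.40 and 8.07 in U87Mut, and its ratios of -0.15, -0.56 and -0.03 had the same sign on all arrays (adjusted p = 0.293). RAD50 was nearly equal in the clones, with ratios of 0.01, 0.05 and -0.12 (adjusted p = 0.86). NBN had ratios of -0.44, 0.19 and -0.48, with a different sign on the IGF1 array (adjusted p = 0.444). Without that array NBN was called, at -0.46 (adjusted p = 0.00812).

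In the BRCA complexes, 3 of 5 genes were called. BRCA1, a ubiquitin ligase that directs breaks to recombination (chr17:43044295-43170327), had median raw brightness of 135.25 in Cy5 and 388.75 in Cy3 in FBS-free medium, over local backgrounds of 21 and 21. After normalization BRCA1 read 7.36, 7.46 and 7.36 in U87WT and 8.61, 8.79 and 8.43 in U87Mut. Its ratios were -1.25, -1.33 and -1.07, in the mean -1.22 ± 0.06 (adjusted p = 0.00289), or 2.32-fold higher in U87Mut. BARD1, the obligate partner of BRCA1 in the ligase, read 7.15, 6.85 and 6.86 in U87WT and 7.87, 7.71 and 7.63 in U87Mut, with a ratio of -0.78 ± 0.04 (adjusted p = 0.00332). BRIP1, a helicase that binds BRCA1, read 6.12, 5.98 and 6.03 in U87WT and 6.51, 6.56 and 6.32 in U87Mut, with a ratio of -0.42 ± 0.06 (adjusted p = 0.027). Its median raw brightness in U87WT was 35, 31 and 34 over local backgrounds of 22. This is close to the background, and the size of the BRIP1 ratio depended on the processing, as given below. BRCA2, which acts after BRCA1 and PALB2 in strand invasion, was not called, at -0.29, -0.29 and -0.10 (adjusted p = 0.073), although its sign was the same on all arrays. It was called without background correction, at -0.44 (adjusted p = 0.0266), and with a normexp offset of 20, at -0.36 (adjusted p = 0.027), and in the other alternatives its adjusted p lay between 0.064 and 0.566. PALB2, which joins BRCA1 to BRCA2, went from 0.10 to -0.18 and -0.34 across the arrays (adjusted p = 0.477).

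Among the paralogs and partners of strand exchange (XRCC2, XRCC3, RAD51C, RAD51D, RAD52, RAD54L, RAD54B), 4 of 7 were called, and those 4 fell into a larger and a smaller pair. XRCC2, a strand exchange paralog (chr7:152644776-152676141), read 7.16, 7.36 and 7.25 in U87WT and 8.17, 8.49 and 8.16 in U87Mut. RAD54L, a motor that helps the strand invade the intact molecule (chr1:46247688-46278473), read 7.94, 7.95 and 7.78 in U87WT and 8.90, 9.02 and 8.77 in U87Mut. Their ratios were -1.02 ± 0.05 (adjusted p = 0.00314) and -1.01 ± 0.04 (adjusted p = 0.00256), each about 2.0-fold higher in U87Mut, and the ratios of RAD54L spanned only -1.07 to -0.96. RAD54B, a related motor, read 8.01, 7.85 and 7.89 in U87WT and 8.45, 8.38 and 8.29 in U87Mut, a ratio of -0.46 ± 0.04 (adjusted p = 0.00724). A second RAD54B probe gave -0.15 and was not called (adjusted p = 0.268). The paralog RAD51C read 8.90, 9.03 and 8.93 in U87WT and 9.38, 9.46 and 9.33 in U87Mut, a ratio of -0.43 ± 0.04 (adjusted p = 0.00648). Other paralogs did not pass: RAD51D had ratios of -0.10, 0.01 and -0.06 (adjusted p = 0.567) and XRCC3 of -0.13, 0.38 and 0.22 (adjusted p = 0.48). RAD52, which anneals single strands, stood at -0.08, 0.02 and -0.15 (adjusted p = 0.499).

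Of the 3 nuclease genes, EME1 was called. EME1, the partner of the nuclease MUS81, read 6.49, 6.35 and 6.47 in U87WT and 6.72, 6.97 and 6.87 in U87Mut, and its ratio of -0.42 ± 0.08 lay close to the threshold (adjusted p = 0.0477). MUS81 had ratios of -0.11, -0.05 and -0.13 (adjusted p = 0.225). SLX4, the scaffold that holds several such nucleases, had -0.10, -0.09 and -0.24 (adjusted p = 0.163). Both kept a negative sign on the 3 arrays without passing the test.

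The Fanconi core complex and its anchor, grouped here with the enzyme UBE2T, had the most called genes, 8 of 9. FANCA, a core subunit (chr16:89737549-89816647), read 6.98, 6.70 and 6.92 in U87WT and 8.23, 8.27 and 7.92 in U87Mut. Its ratios of -1.25, -1.57 and -1.0 gave a mean of -1.28 ± 0.11 (adjusted p = 0.00724), or 2.42-fold higher in U87Mut. The other 2 FANCA probes gave -0.80 and -0.49 and were both called. FANCG, which FANCA binds (chr9:35073839-35079942), read 9.76, 9.78 and 9.90 in U87WT and 10.67, 10.71 and 10.64 in U87Mut, with a ratio of -0.86 ± 0.05 (adjusted p = 0.00355). FANCE, the subunit that contacts FANCD2, read 8.57, 8.54 and 8.71 in U87WT and 9.43, 9.47 and 9.34 in U87Mut, with a ratio of -0.81 ± 0.07 (adjusted p = 0.00667). Levels of these 3 subunits, already picked as called lower, did not overlap between the clones.

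UBE2T, the enzyme that carries the ubiquitin, read 9.74, 9.68 and 9.72 in U87WT and 10.68, 10.41 and 10.30 in U87Mut, a ratio of -0.75 ± 0.08 (adjusted p = 0.0101). FANCL, the ligase subunit, read 10.09, 9.74 and 9.94 in U87WT and 10.64, 10.65 and 10.49 in U87Mut, a ratio of -0.67 ± 0.08 (adjusted p = 0.0161). A second FANCL probe was called as well, at -0.35. The anchor FANCM, a DNA motor, read 6.72, 6.60 and 6.62 in U87WT and 7.15, 7.19 and 6.92 in U87Mut, a ratio of -0.44 ± 0.06 (adjusted p = 0.0218). FANCC, the partner of FANCE, read 8.12, 7.83 and 7.87 in U87WT and 8.52, 8.47 and 8.16 in U87Mut, a ratio of -0.44 ± 0.07 (adjusted p = 0.0323). FANCB, which sits with FANCL in the catalytic module and lies on chromosome X, read 6.47, 6.35 and 6.48 in U87WT and 6.74, 6.80 and 6.82 in U87Mut, a ratio of -0.35 ± 0.05 (adjusted p = 0.0188). FANCF, an adaptor of the core, was the exception: its brightest probe gave -0.15, -0.38 and 0.04 (adjusted p = 0.371), and its other probe gave 0.23 in the mean, so that the 2 probes disagreed in sign and no direction is given.

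Both genes of the clamp that the core modifies were called. FANCI (chr15:89243979-89317259) had median raw brightness of 386.5 in Cy5 and 1182.5 in Cy3 in FBS-free medium. It read 8.63, 8.87 and 8.91 in U87WT and 10.07, 10.19 and 9.90 in U87Mut, and its ratios of -1.44, -1.33 and -1.0 gave a mean of -1.26 ± 0.09 (adjusted p = 0.00496), or 2.39-fold higher in U87Mut. FANCD2 read 7.21, 7.0 and 7.15 in U87WT and 7.51, 7.71 and 7.55 in U87Mut, with a ratio of -0.47 ± 0.09 (adjusted p = 0.0426). A second FANCD2 probe was called at -0.39, and the other was not well above background in U87WT on any array. The ratio of FANCI was the more negative of the pair on each array.

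**Figure D2:**
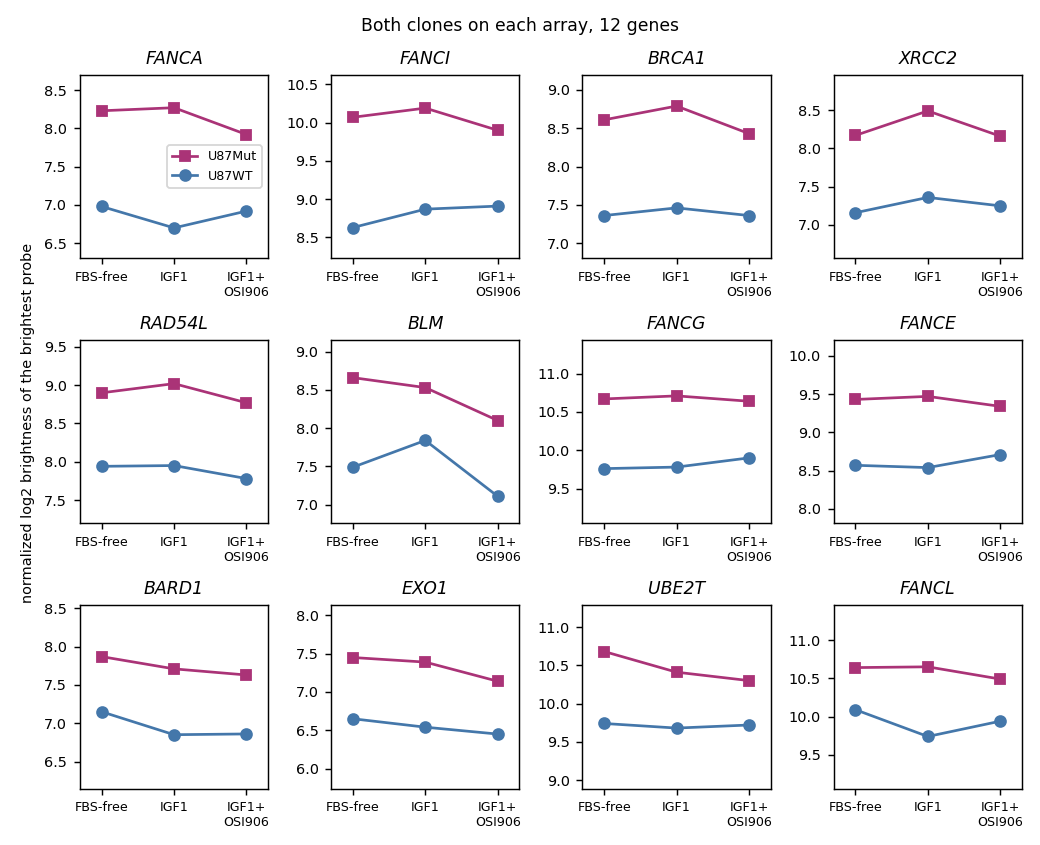
Normalized log2 brightness (vertical axis, each panel spanning 2.4 log2 units around its own mean) of the 12 genes below -0.5 on all arrays, on the 3 arrays (horizontal axis); squares are U87Mut (Cy3), circles U87WT (Cy5), 1 array a point. In all 12 panels every U87Mut point lies above every U87WT point, in genes that were chosen for their low ratio.

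The size of the ratio depended on the processing for 11 of the 24 called genes, whose mean ratio moved by over 1.5 times under at least 1 of 9 other ways of processing all 3 arrays. The widest ranges were those of BRIP1, from -1.9 to -0.24, FANCA, from -1.99 to -0.86, and EXO1, from -1.56 to -0.55. EME1 lay between -1.06 and -0.24, FANCB between -0.99 and -0.22, FANCM between -1.01 and -0.28, and BARD1 between -1.25 and -0.57. ATRIP ranged from -0.58 to -0.15, FANCD2 from -0.74 to -0.30, CHEK1 from -0.71 to -0.37, and RAD54B from -0.60 to -0.30. FANCI stayed between -1.35 and -1.21.

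Several probes were read for 12 of the 38 genes, and for 9 of these all probes had the same sign; the exceptions were ATM, CHEK2 and FANCF. Repeated spots within an array gave a measure of technical error for 5 probes, with 9 or 10 spots each. The 10 spots of BRCA1 ranged from -1.40 to -1.15 in FBS-free medium (SD 0.0752), from -1.44 to -1.12 with IGF1 (SD 0.0976) and from -1.18 to -0.95 with IGF1 and OSI906 (SD 0.0722). For the FANCA probe with repeated spots, whose mean ratio was -0.80, all spots lay between -1.01 and -0.59. The RAD50 spots lay between -0.17 and 0.15, with 4 of 10 below 0 in FBS-free medium, 2 of 10 with IGF1 and 9 of 10 with IGF1 and OSI906. All spots of EXO1 and WRN lay below 0, up to -0.54 and -0.05.

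**Figure D3:**
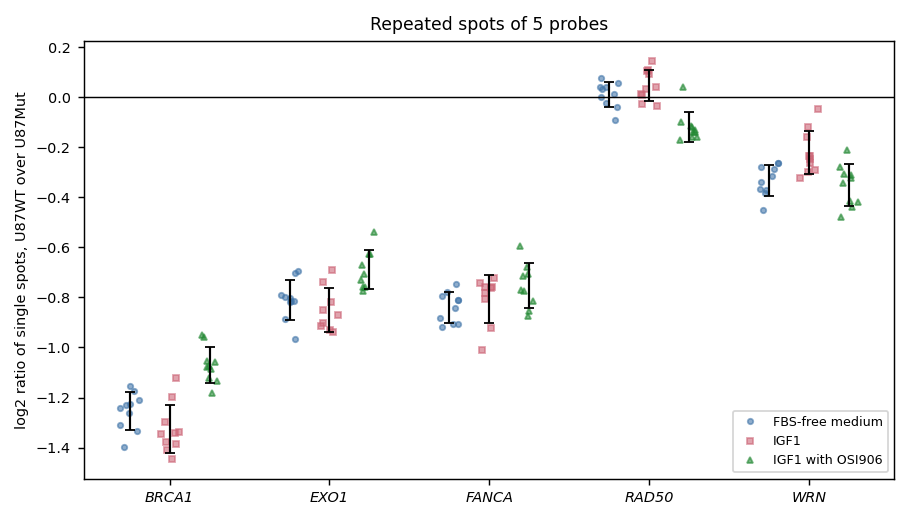
Log2 ratio of U87WT over U87Mut of single spots (vertical axis) for 5 probes printed repeatedly on each array (horizontal axis); black bars are the mean and SD over the 9 or 10 spots. Spots of BRCA1, EXO1, FANCA and WRN are all below 0, and those of RAD50 lie between -0.17 and 0.15.

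Genes next to the members on the chromosomes had medians near 0. The median mean ratio of up to 20 genes on each side of a member lay between -0.04 and 0.05 for all 38, over 40 neighbours for 36 members, 34 for RAD52 and 30 for FANCA. This was -0.01 around FANCI, 0.00 around FANCA and 0.00 around BRCA1. Neighbours were taken whether or not they were well above background, and the median mean ratio over all named genes was also 0.00. These medians are a description, and a change of a local region was not tested.

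The rest of the pathway was described with a second list, of 65 other homologous recombination and Fanconi genes. Of 63 tested, 24 were called lower in U87WT and 1 higher, and the list's median ratio was -0.20, -0.16 and -0.21 on the 3 arrays. RMI2, a partner of BLM, had -1.75, -1.57 and -1.68 (adjusted p = 0.0022), and POLQ, a polymerase of an alternative end joining route, had -1.07, -0.90 and -1.01 (adjusted p = 0.00272). Both were among the 3 lowest means of that list, and the 3 highest were ERCC4, a nuclease subunit that cuts at crosslinks, at 0.39 (adjusted p = 0.0377), CENPX at 0.23 (adjusted p = 0.434) and SHLD1 at 0.16 (adjusted p = 0.127).

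Other routes of repair were read in the same way. In non-homologous end joining, 1 of 12 genes was called lower, XRCC5 at -0.30 (adjusted p = 0.0344), and 1 higher. Among all genes well above background 11.3% were called lower and 11.5% higher, so the end joining counts are no more than that share. In mismatch repair 3 of 7 were called lower and 0 higher, among them MSH6, of a mismatch sensor, at -0.84 (adjusted p = 0.00337). Counts between these lists were not tested against each other.

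Genes of S phase and mitosis moved in the same direction as the members. Of 35 tested, 31 were called lower in U87WT and 0 higher (33 lower by unadjusted p), with a median ratio of -0.74, -0.84 and -0.89 on the 3 arrays. The lowest of those well above background throughout were UHRF1, a reader of newly replicated DNA, at -1.85 ± 0.08 (adjusted p = 0.00256), CDC45, part of the replicative helicase, at -1.8 ± 0.08 (adjusted p = 0.00262), and MCM7, also of that helicase, at -1.75 ± 0.09 (adjusted p = 0.00328). Of the highest, AURKA, a mitotic kinase, was called at -0.29 (adjusted p = 0.0438), while MKI67, a proliferation marker, had 0.01, -0.77 and -0.20 (adjusted p = 0.337) and TOP2A, a topoisomerase, had -0.80, 0.74 and -1.04 (adjusted p = 0.658). The part of the cell cycle in the members' difference was not tested. Among 20 p53 targets, 5 were called lower, with GDF15 at -1.38, GADD45A at -1.02 and SESN2 at -0.89, and 4 higher, with TIGAR at 0.63, FAS at 0.44 and DDB2 at 0.32.

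**Figure D4:**
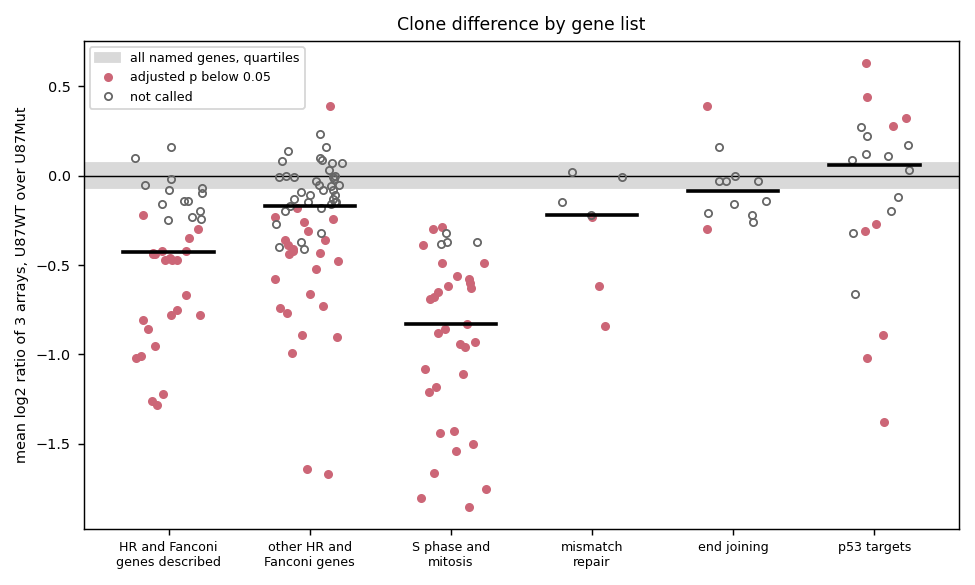
Mean log2 ratio of the 3 arrays, U87WT over U87Mut (vertical axis), of each gene in 6 lists (horizontal axis); filled points passed the limma test, black bars are list medians and the grey band holds the middle of all named genes, between their quartiles. The medians of 5 lists lie below the band, from -0.09 (end joining) and -0.17 (other homologous recombination and Fanconi genes) through -0.22 (mismatch repair) and -0.43 (the genes described) to -0.83 (S phase and mitosis), and that of p53 targets is 0.06. Genes well above background, which are not drawn as a band, have wider quartiles of -0.14 and 0.14. The end joining median lies between these.

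The receptor and the cell markers were read in the same way. IGF1R, which both clones carry as a transgene, had ratios of 0.07, 0.23 and 0.09 (adjusted p = 0.201), by a probe that was not checked against the construct. The 6 glioma line markers (VIM, CD44, NES, S100A6, LGALS1, TNC) were well above background on every array in each clone. Of these, LGALS1 at 0.62 and S100A6 at 0.60 were called higher in U87WT and TNC at -0.90 lower. Of 10 markers of other cells, 5 were well above background throughout (EPCAM, OLIG2, PTPRC, RBFOX3, VWF), and 1, EPCAM, was called, at 0.36 (adjusted p = 0.046). GFAP, a marker of astrocytes, and CDH1, of epithelial cells, were not well above background in either channel of any array. On the arrays, 50.1 to 52.8% of probes exceeded background clearly in the Cy5 and Cy3 channels alike, 0 spots were saturated, and the scanner software marked 384, 572 and 5 spots as not uniform.

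Changes with treatment were read within a clone as the difference between single channels of 2 arrays, with 1 array a condition and no test. A clone's level was rebuilt from an array's mean brightness and its normalized ratio, so an error in the ratio moves the clones in opposite directions. With IGF1, against FBS-free medium, the members' median change was -0.04 in U87WT (from -0.35 to 0.35) and 0.04 in U87Mut (from -0.31 to 0.32), beside 0.00 and -0.01 over all named genes. These medians had no stable sign: they were 0.15 in U87WT with marked spots left in the background fit, and 0.28 in U87WT and -0.23 in U87Mut with median centring in place of loess. In neither clone did a member move past 0.5 in size, where 2.96% of all genes did in U87WT and 1.6% in U87Mut. IGF1 with OSI906, against IGF1, gave a median of 0.00 in U87WT and -0.10 in U87Mut, beside -0.01 and 0.01 over all named genes. In U87Mut 31 of 38 members were below 0, as were 11606 of 24786 genes, but with median centring in place of loess 17 of 38 were and the median was 0.01. In U87WT 2 members moved past 0.5, BLM at -0.74 and NBN at -0.70, where 4.54% of all genes did, and in U87Mut 0 did, where 1.89% of all genes did. With marked spots left in the background fit 5 members moved past 0.5 in U87WT with IGF1 and 7 with OSI906. With median centring 4 did in U87WT and 3 in U87Mut with IGF1. With processed signals 1 did in each clone with IGF1, and with OSI906 4 did in U87WT and 2 in U87Mut. BLM and NBN kept their sign in U87WT with marked spots left in the background fit, at -0.97 and -0.47. The U87WT level of BLM was the highest of its 3 values with IGF1 and the lowest with OSI906.

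Most of the 9 genes grouped as Fanconi core and anchor, UBE2T among them, differed in sign between the clones in this contrast. In U87WT all 9 were above 0 with OSI906, by 0.02 to 0.23, as were 11805 of 24786 genes. In U87Mut 8 of 9 were below 0, by as much as -0.35, as were 11606 of 24786 genes. This pattern rests on how marked spots and probes were treated: with marked spots left in the background fit 4 of 9 were above 0 in U87WT, with median centring in place of loess 5 of 9, and with each gene averaged over its probes 7 of 9. In U87Mut 4 of 9 were below 0 with median centring. The changes share the IGF1 array and were not tested, and the share of all genes with both signs was not computed. With levels rebuilt from a ratio, opposite signs can also come from an error in that ratio. Within U87Mut, BRCA1 changed by -0.36, XRCC2 by -0.34 and FANCI by -0.29 with OSI906, and within U87WT by -0.10, -0.12 and 0.04. With marked spots left in the background fit these were -0.34, -0.31 and -0.43 in U87Mut and -0.78, -0.73 and -0.20 in U87WT, so that for BRCA1 and XRCC2 the clone with the larger decrease turned.

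**Figure D5:**
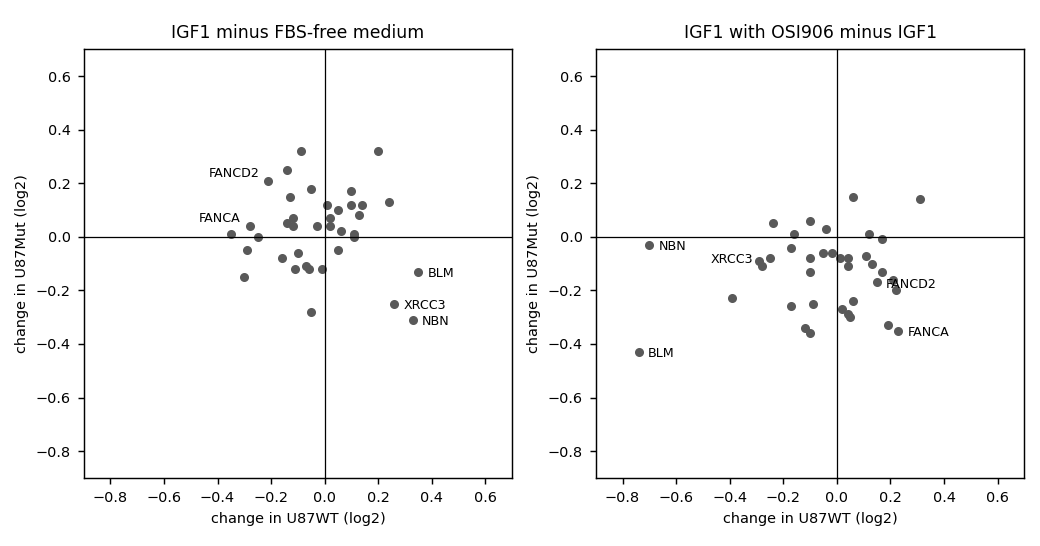
Change of the 38 genes in U87WT (horizontal axis, log2) against the change in U87Mut (vertical axis, log2), for IGF1 minus FBS-free medium (left) and for IGF1 with OSI906 minus IGF1 (right), 1 array a condition. BLM and NBN lie farthest left in the right panel, at -0.74 and -0.70.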

How the data were processed

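Total RNA of U87WT (Cy5) and U87Mut (Cy3) was hybridized on 3 Agilent arrays, 1 per condition, on 1 slide read in 1 scan. Spot intensities deposited for each array came, per the file headers, from Agilent Feature Extraction 12.0.3.1; median spot and median local background brightness, not normalized, were used, and that software's processed signals as an alternative. The authors also deposited log2 ratios, 1 per probe and array, corrected for background and normalized with limma according to the methods, whose version is not given in the sources used here. Against the ratios computed here these had Pearson correlations of 0.989, 0.603 and 0.975 over probes, in the order FBS-free medium, IGF1, IGF1 with OSI906.

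From the scanner intensities, the background was corrected by normexp (offset 50) in limma 3.58.1 (R 4.3.3), fitted without spots marked as not uniform; control spots were then removed, ratios were normalized by loess within and by Aquantile between arrays, marked spots and population outliers were left out, and spots of a probe were averaged. Probes were named through RefSeq accessions (34892 of 36770). The brightest probe stood for a gene. All 38 members were tested; 57318 of 58201 probes had a ratio on all 3 arrays. The clone difference was tested with lmFit and eBayes with an intercept only, adjusted by Benjamini-Hochberg at 0.05. Precision is limited by the number of arrays, and p-values measure only the spread between these 3 arrays. In a simulation of 200 probes moved by 1 on the log2 scale among 57318, 200 were called, with 4 others. The moved probes were drawn from bright probes only and moved alike on all 3 arrays, with no response to treatment. The simulation therefore does not cover dimmer members, ratios smaller than 1 or the dependence of the calls on the background fit.

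The members, lists and tests were chosen with earlier results of these data known. All members are named, with both channels for those called, or past 0.5 with 1 sign on all arrays; other lists are given by counts, with examples from their 3 highest and 3 lowest genes well above background, and other genes by name where a result turns on them. Some genes of these lists are not reported here by name. Alternatives changed the background correction, its offset, the spots fitted, the normalization, the choice of probes and the arrays, or used the deposited ratios.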

Additional observations from a re-analysis of the deposited data

Results flagged for a closer look

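In 4 cases the change between conditions had opposite signs in the clones and exceeded 0.202 on the log2 scale in each. With 1 array a condition the difference between the clones was not tested. The limit of 0.202 is the SD of a difference between ratios, derived from the SD of a single log2 ratio, 0.143. That SD was estimated without the IGF1 array, which all of these changes use. The share of all genes that meet this rule was not computed, so these cases have no baseline. Levels were rebuilt from a ratio, and an error in that ratio can also give opposite signs. With IGF1 against FBS-free medium, FANCD2 changed by -0.21 in U87WT and by 0.21 in U87Mut, a difference of -0.41. A second FANCD2 probe, well above background, changed by 0.03 and 0.19, with the same sign in both clones. The third, not well above background in U87WT, changed by 0.03 and -0.08. NBN changed by 0.33 and -0.31, a difference of 0.63, and XRCC3 by 0.26 and -0.25, a difference of 0.51. With IGF1 and OSI906 against IGF1, FANCA changed by 0.23 in U87WT and by -0.35 in U87Mut, a difference of 0.57; the FANCA probe with repeated spots changed by -0.14 and -0.19. With marked spots left in the background fit, the U87WT changes were 0.27 for FANCD2, 0.16 for NBN, 0.01 for XRCC3 and -0.83 for FANCA, so that FANCD2 and FANCA no longer had opposite signs in the clones.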

How the results depend on the processing

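The 24 called members stayed below 0 under all 12 alternatives; the counts and medians of several did not hold. With the background fitted on all spots, 8 members were called, 10 were past 0.5 in size with IGF1, the IGF1 median was -0.31, and the median changes in U87WT were 0.15 with IGF1 and -0.20 with OSI906. With signals processed by the scanner software, 0 members were called by limma (24 by unadjusted p, and 0 of all probes adjusted against 10026 unadjusted), 22 and 24 were past 0.5 in FBS-free medium and with OSI906, and the medians with IGF1 and with OSI906 were -0.81 and -0.56. With the median in place of loess, 0 were called by limma (22 by unadjusted p; 5085 of all probes unadjusted), 20 and 12 were past 0.5 in FBS-free medium and with IGF1 (10 of the 12 lower and 2 higher), those medians were -0.59 and -0.26, and the IGF1 changes were 0.28 in U87WT and -0.23 in U87Mut; under it the genes well above background had medians of -0.17, 0.30 and 0.05 on the 3 arrays. With the deposited ratios, 8 were called. Without 1 array, 9 (without IGF1 with OSI906) to 24 (without IGF1) were called, and 15 without FBS-free medium. Beside 5071 of all probes called, 669 were called with all spots in the fit, 785 with the deposited ratios and 675 without the array of IGF1 with OSI906. The cause of these differences was not tested. The ratio pairs the clones within each array, so the clone test is paired by array as it stands. No paired analysis was possible because each condition has 1 array, where conditions are compared. Signal over background limits the dimmer members, such as BRIP1 and BRCA2.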
